A study of Mus musculus with 6 samples.

Results

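The genes examined were the immediate early transcription factor genes of the FOS, JUN and EGR families together with *Atf3*, measured in ETV2::GFP+FLK1+CD41- cells that were sorted from mouse embryos at E8.5 and at E7.5. They were taken by name: a probe set was used when the annotation of the array gave it a single symbol and that symbol was *Fos*, *Fosb*, *Fosl1*, *Fosl2*, *Jun*, *Junb*, *Jund*, *Egr1*, *Egr2* or *Atf3*. Of these 10 genes, 9 were measured, by 26 of the 77669 probe sets that carried 1 symbol, among 16523 genes in all. *Fos* had no such probe set among those given and was not analysed here.

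Both stages came from matings of ICR females with males of the transgenic ETV2::GFP line, whose GFP marks cells that express *Etv2*, a transcription factor of blood and endothelial specification. Embryos were dissociated with trypsin, and GFP+ cells that carried FLK1, the VEGF receptor encoded by *Kdr*, and lacked CD41, the integrin encoded by *Itga2b*, were sorted, 50 cells for each array. There were 3 arrays of E8.5 cells and 3 of E7.5 cells, with no further treatment or mutation in either group. The E8.5 cells came from the embryo proper and the E7.5 cells are discussed in the study as extra-embryonic, so that stage and site cannot be told apart. Whether the replicates came from separate litters, and the time between harvest and lysis, are not given in the sources used here, and p-values therefore measure the spread between these samples.

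Immediate early genes are transcribed within minutes of a stimulus without new protein synthesis, and their transcripts are short-lived. Growth factor signalling through the ERK kinases acts on the serum response factor and its ETS partners at CArG boxes of such promoters, and cyclic AMP and stress signalling act through CREB and ATF proteins at cyclic AMP response elements (CREs). FOS and JUN proteins dimerize into the AP-1 factor, whereas EGR proteins bind GC-rich sites through zinc fingers and are held in check by the NAB corepressors. VEGF is among the signals known to induce *Egr1* in endothelial cells, and enzymatic dissociation of tissue is known to induce many genes of the class.

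The promoters are shown because these elements are how the genes read signals. RefSeq promoter sequences of GRCm38.p6, running from 250 bases before to 50 bases after a transcript start, were given for 8 of the 10 genes, all but *Egr1* and *Fosl1*. The stretches below are written 5′ to 3′ on the strand of the gene, with the match named on each line in capitals and up to 40 bases on each side. The CRE core TGACG, read as CGTCA on the other strand, was matched in 5 of the 8 genes (*Atf3*, *Egr2*, *Fos*, *Fosb* and *Junb*) and in 20.8% of all 32851 promoter windows of that length. A gene counted as matched when any of its windows held the match, and *Egr2* had several windows. The percentages are of single windows, so the units differ. The variant TGACATCA is named for the *Jun* promoter, so its match in *Jun* was given beforehand, and it was matched in 3.62% of windows. Within these windows a CArG box was matched in *Egr2* alone of the 8 and in 1.63% of windows. Sequence further from the start was not searched, so a gene without a match here may still carry the element there. In the printed stretch of *Egr2* a CArG box stood between a pair of CRE cores. Another window of *Egr2* held a further CArG box, which is not printed.
Atf3, chr1:191183296-191183380, minus strand, CRE core: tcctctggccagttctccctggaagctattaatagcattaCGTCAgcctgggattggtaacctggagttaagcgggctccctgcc
Jun, chr4:95052220-95052307, minus strand, TGACATCA: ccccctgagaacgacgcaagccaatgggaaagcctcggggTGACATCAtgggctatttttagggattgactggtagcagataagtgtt
Fosb, chr7:19310061-19310145, minus strand, CRE core: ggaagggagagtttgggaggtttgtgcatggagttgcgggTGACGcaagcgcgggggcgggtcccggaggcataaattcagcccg
Junb, chr8:84978810-84978894, minus strand, CRE core: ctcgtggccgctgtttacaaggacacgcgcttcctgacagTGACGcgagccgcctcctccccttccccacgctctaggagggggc
Egr2, chr10:67537718-67537858, plus strand, CRE cores and CArG box: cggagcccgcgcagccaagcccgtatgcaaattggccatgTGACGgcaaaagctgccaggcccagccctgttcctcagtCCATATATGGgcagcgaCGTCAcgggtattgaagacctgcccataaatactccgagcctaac

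The match in *Atf3* began 7 bases before the transcript start, that in *Jun* 45 bases, that in *Fosb* 60 bases and that in *Junb* 106 bases before it. Both strands were searched, and a core match can be part of a full CRE, TGACGTCA, which was matched in none of the 8 genes and in 1.79% of windows. The AP-1 site TGANTCA was likewise matched in none of the 8 and in 7.81% of windows, and the EGR site GCGNGGGCG in *Fosb* and *Fosl2* and in 5.55% of windows. A match gives letters in a window and was not tested for binding.

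Values are log2 RMA signals, the scale on which the array software summarizes each probe set, and the level of a gene on an array is the median over its probe sets. The stages were compared as E8.5 minus E7.5, so that 1 unit is a 2-fold difference. None of the 9 genes passed an adjusted p of 0.05 from limma over all genes, where 0.109% of genes did. At an unadjusted p of 0.05, there were 2 of 9 genes against 7.8% of all genes. These were *Egr1*, lower at E8.5 as 4.68% of all genes were at that level, and *Jund*, higher at E8.5 as 3.11% were. The methods' t-test left 1 of 9 at that level and none after adjustment. The difference was over 2-fold for 3 of 9 genes against 7.5% of all genes, with *Egr1* and *Fosl2* lower (4.79% of all genes) and *Atf3* higher at E8.5 (2.72%). Of the 9 genes, 5 were higher and 4 lower at E8.5, with a median difference of 0.07 against 0.0035 over all genes.

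**Figure D1:**
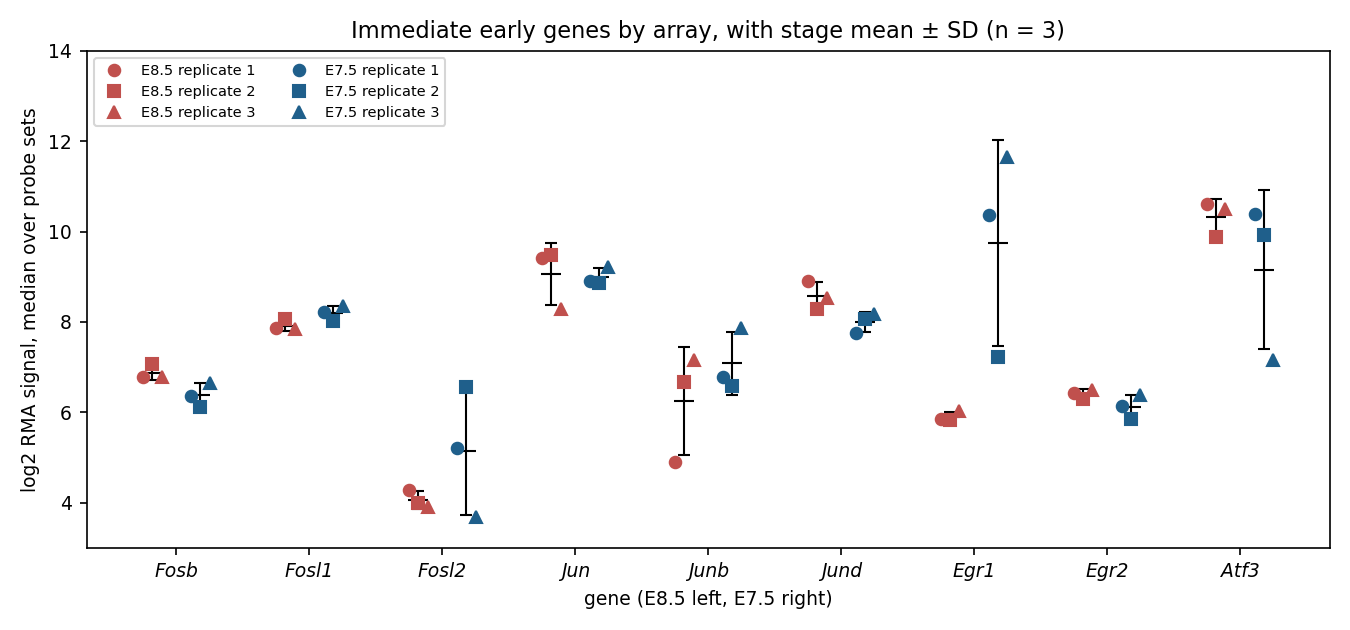
Log2 RMA signal (vertical axis) of each measured gene (horizontal axis) on the 3 E8.5 arrays (red, left) and the 3 E7.5 arrays (blue, right), with the stage mean and SD. *Egr1* lay between 5.82 and 6.02 on the E8.5 arrays and between 7.23 and 11.64 on the E7.5 arrays, whereas the stages overlapped for *Fosl1*, *Fosl2*, *Jun*, *Junb*, *Egr2* and *Atf3*.

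*Egr1*, which encodes a zinc finger activator induced by growth factors, had the largest difference of the 9 genes. Its signal was 5.86, 5.82 and 6.02 in E8.5 replicates 1, 2 and 3, against 10.38, 7.23 and 11.64 in E7.5 replicates 1, 2 and 3. All 3 E8.5 arrays were close together, and all 3 E7.5 arrays were higher, with replicate 2 nearest to the E8.5 arrays. *Egr1* averaged 5.90 ± 0.11 at E8.5 and 9.75 ± 2.27 at E7.5 (SD, n = 3 each), a difference of -3.85 (SE 1.07, 95% interval -6.45 to -1.25) or 14.4-fold lower at E8.5. The adjusted p from limma was 0.44, and the exact permutation test gave its smallest possible p, 0.1 (two-sided, 3 against 3). Only 0.109% of genes had a larger difference in either direction, and 2.46% of genes had a smaller p. The stages did not overlap for 3 of the 9 genes, against 14.2% of all genes. *Egr1* was the lower one at E8.5, as were 7.12% of all genes, and *Fosb* and *Jund* were higher, as were 7.1%. In bulk RNA of 50 cells, fewer cells with the transcript and less transcript in each cell cannot be told apart.

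The spread of *Egr1* lay at E7.5. Its SD of 0.11 among the E8.5 arrays was exceeded by 88.3% of genes, whereas its SD of 2.27 among the E7.5 arrays was exceeded by 0.466% of genes. The E8.5 signals of *Egr1*, 5.82 to 6.02, lay below the array medians of 6.98 to 7.07. Whether a floor of the signal set the small E8.5 spread or limited the fold difference was not tested. Leaving out E7.5 replicate 2 gave -5.11 (SE 0.41, adjusted p = 0.0871 from limma), and leaving out E7.5 replicate 3 gave -2.90 (adjusted p = 0.66 from limma).

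A pair of probe sets measured *Egr1*, and both were lower at E8.5. Probe set 4902684 read 5.87, 5.39 and 5.41 at E8.5, against 11.08, 7.90 and 11.52 at E7.5. It gave -4.61 (SE 0.97, adjusted p = 0.36 from limma over 77669 probe sets), and its stages did not overlap. Probe set 4412277 read 5.84, 6.24 and 6.63 at E8.5, against 9.67, 6.56 and 11.76 at E7.5. It gave -3.09 (SE 1.28, adjusted p = 0.72 from limma), and E7.5 replicate 2 lay just below E8.5 replicate 3. Both probe sets thus placed E7.5 replicate 2 well below the other two E7.5 arrays.

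The other EGR gene and the corepressors differed by less than 2-fold. *Egr2*, a zinc finger factor of hindbrain and Schwann cells, read 6.43, 6.29 and 6.50 at E8.5, against 6.14, 5.85 and 6.37 at E7.5, on 1 probe set. The stages overlapped, and the difference was 0.28 (SE 0.20, 95% interval -0.20 to 0.77, adjusted p = 0.77 from limma), or 0.15 without E7.5 replicate 2. *Nab1* and *Nab2*, whose products repress EGR proteins, differed by 0.030 (95% interval -0.55 to 0.61) and 0.024 (-0.42 to 0.47). *Egr3* and *Egr4* had no probe set with 1 symbol among those given and were not analysed here.

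**Figure D2:**
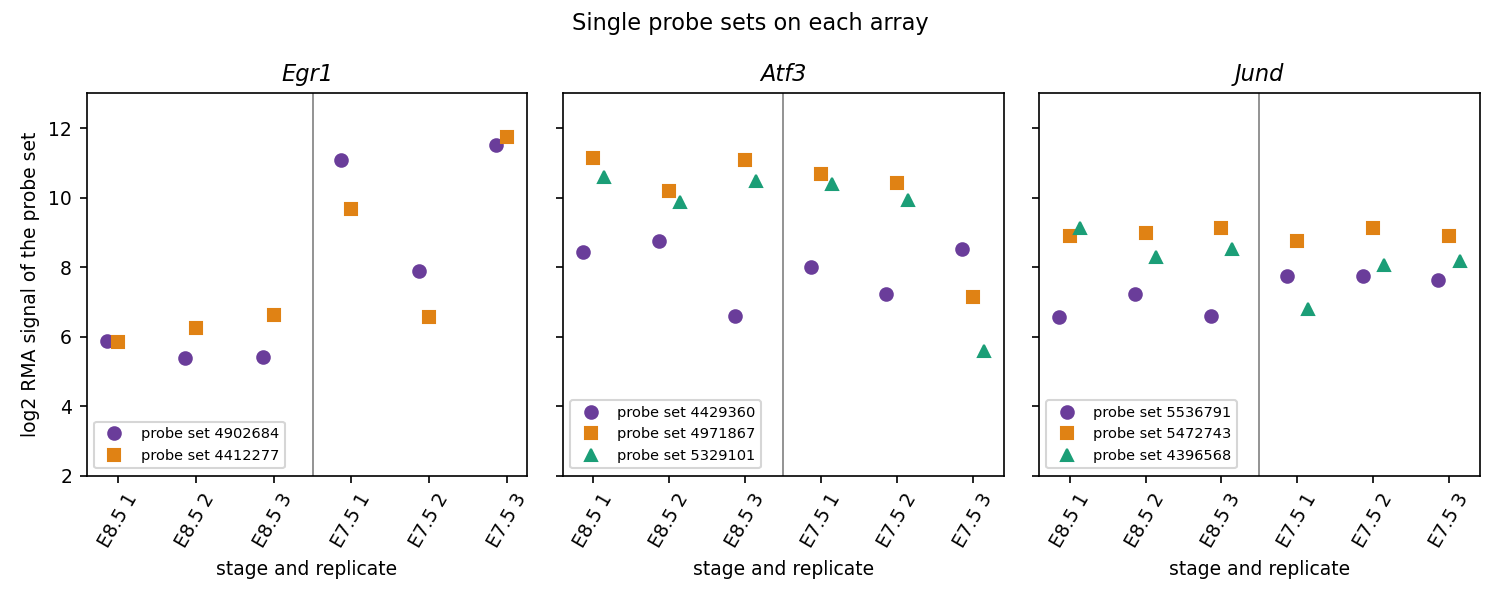
Log2 RMA signal (vertical axis) of each probe set of *Egr1*, *Atf3* and *Jund* on the E8.5 arrays (left of the line) and the E7.5 arrays (right of it). Both *Egr1* probe sets were lower at E8.5, *Atf3* probe sets 4971867 and 5329101 were low on E7.5 replicate 3 alone, and *Jund* probe sets 4396568 and 5536791 differed in opposite directions.

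*Jund*, the JUN gene with the steadiest expression in most cells, had a gene-level difference that its probe sets did not share. The gene read 8.90, 8.29 and 8.52 at E8.5, against 7.75, 8.06 and 8.18 at E7.5. Every E8.5 array was above every E7.5 array, by 0.57 on average (SE 0.23, 95% interval 0.011 to 1.14, adjusted p = 0.63 from limma, exact permutation p = 0.1). Among its 3 probe sets, 4396568 was higher at E8.5 by 0.97 (SE 0.46), at 9.14, 8.29 and 8.52 against 6.80, 8.06 and 8.18 at E7.5. Probe set 5536791 was lower at E8.5, at -0.91 (SE 0.25), with 6.58, 7.24 and 6.60 against 7.75, 7.76 and 7.64 at E7.5. The stages did not overlap in either, in opposite directions, and neither passed (adjusted p = 0.75 and 0.53 from limma). The third, 5472743, read 8.90, 8.98 and 9.13 at E8.5, against 8.75, 9.12 and 8.89 at E7.5, and overlapped. The median took probe set 4396568 on 4 arrays, 5472743 on E8.5 replicate 1 and 5536791 on E7.5 replicate 1. With the mean over probe sets the difference of *Jund* was 0.045, and with its brightest probe set it was 0.080.

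*Jun*, the founding AP-1 subunit, was measured by 11 probe sets and differed little. It read 9.41, 9.49 and 8.27 at E8.5, against 8.91, 8.85 and 9.22 at E7.5. E8.5 replicate 3 was the lowest of all 6 arrays and the other two E8.5 arrays were the highest, so the stages overlapped. The difference was 0.07 (SE 0.36, 95% interval -0.81 to 0.94, adjusted p = 0.98 from limma). Of the 11 probe sets, 2 were higher and 9 lower at E8.5, from -1.79 to 0.19, and the stages overlapped in all 11. The probe set with the lowest difference, 5393749, read 5.24, 4.71 and 4.21 at E8.5, against 4.54, 7.55 and 7.43 at E7.5, so that E7.5 replicate 1 lay among the E8.5 arrays.

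*Junb*, which often opposes *Jun* in AP-1 dimers, rested on 1 probe set. It read 4.89, 6.68 and 7.16 at E8.5, against 6.79, 6.58 and 7.87 at E7.5. E8.5 replicate 1 was far below the other five arrays, and the remaining E8.5 arrays lay within the E7.5 range. The difference was -0.83 (SE 0.66, 95% interval -2.44 to 0.77, adjusted p = 0.79 from limma), and it was -0.16 without E8.5 replicate 1.

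Of the FOS genes, *Fosb* was a little higher at E8.5. It read 6.79, 7.08 and 6.77 at E8.5, against 6.37, 6.12 and 6.65 at E7.5. The stages did not overlap, although E7.5 replicate 3 came close to the lowest E8.5 array. The difference was 0.50 (SE 0.21, 95% interval -0.0073 to 1.01, adjusted p = 0.65 from limma, exact permutation p = 0.1). All 3 of its probe sets were higher at E8.5, from 0.22 to 0.50, and the stages were apart in 1 of them. With the mean over probe sets the difference of *Fosb* was 0.32, and with its brightest probe set it was 0.24.

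*Fosl1* and *Fosl2* encode the FOS-related proteins FRA1 and FRA2, and each rested on 1 probe set. *Fosl1* read 7.86, 8.06 and 7.84 at E8.5, against 8.21, 8.01 and 8.35 at E7.5. The stages overlapped through E8.5 replicate 2 and E7.5 replicate 2, and the difference was -0.27 (SE 0.18, 95% interval -0.70 to 0.16, adjusted p = 0.75 from limma). *Fosl2* read 4.27, 4.00 and 3.90 at E8.5, against 5.20, 6.57 and 3.69 at E7.5. Its E8.5 arrays were close together and its E7.5 arrays spanned them, with replicate 2 highest and replicate 3 lowest of all 6. The difference of *Fosl2* was -1.10 (SE 0.69, 95% interval -2.78 to 0.58, adjusted p = 0.75 from limma). It was -0.39 when E7.5 replicate 2 was left out and -1.83 when the third was.

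*Atf3*, a stress-induced partner of JUN proteins, was the gene with the largest difference in the other direction. It read 10.60, 9.88 and 10.49 at E8.5, against 10.39, 9.93 and 7.16 at E7.5. E7.5 replicate 3 alone was low, and the other two E7.5 arrays lay within the E8.5 range. *Atf3* averaged 10.33 ± 0.39 at E8.5 and 9.16 ± 1.75 at E7.5 (SD, n = 3 each), a difference of 1.17 (SE 0.85, 95% interval -0.89 to 3.23, adjusted p = 0.78 from limma). Without E7.5 replicate 3 the difference was 0.17.

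The low array was seen by 2 of the 3 *Atf3* probe sets. Probe set 5329101 read 10.60, 9.88 and 10.49 at E8.5, against 10.39, 9.93 and 5.59 at E7.5. Probe set 4971867 read 11.15, 10.21 and 11.09 at E8.5, against 10.70, 10.42 and 7.16 at E7.5. Probe set 4429360 read 8.45, 8.76 and 6.59 at E8.5, against 8.00, 7.22 and 8.53 at E7.5. In the last of these E7.5 replicate 3 was the highest E7.5 array and the lowest array was E8.5 replicate 3.

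**Figure D3:**
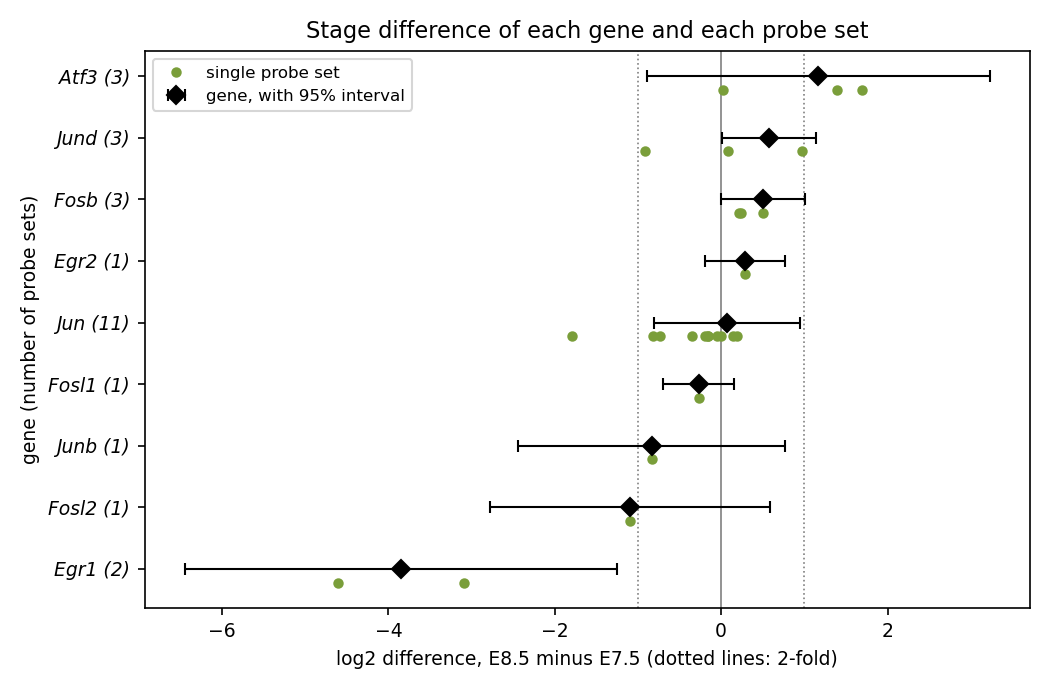
Log2 difference, E8.5 minus E7.5 (horizontal axis), of each measured gene with its 95% interval (black) and of each of its probe sets (green), ordered by the gene's difference. Only the intervals of *Egr1* (-6.45 to -1.25) and *Jund* (0.011 to 1.14) leave out 0, and the probe sets of *Jund* lie on both sides of it.

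Across the 26 probe sets none passed an adjusted p of 0.05 from limma, where 0.0824% of all probe sets did. At an unadjusted p of 0.05 there were 2, against 6.99% of all probe sets, namely 4902684 of *Egr1* and 5536791 of *Jund*, both lower at E8.5, against 4.34% of all probe sets in that direction. Of the 26, 6 differed over 2-fold against 13.9% of all, 4 of them lower at E8.5 (8.8% of all) and 2 higher (5.06%). In 4 the stages did not overlap, against 13.9% of all, with 2 lower at E8.5 (7.33% of all) and 2 higher (6.59%). The median over the 26 was -0.10, with 11 higher and 15 lower at E8.5, against -0.01 over all probe sets. Only 1 of the 26, 4902684 of *Egr1*, passed under any alternative, at -5.74 (SE 0.29, adjusted p = 0.0483 from limma) without E7.5 replicate 2.

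The order of the arrays within a stage was compared across the 9 genes. Each E8.5 array was the highest for 3 of the 9. Of the E7.5 arrays, replicate 3 was the highest for 7 of the 9 genes, where it was the highest for 32.6% of all genes, and it was the lowest for the remaining genes, *Fosl2* and *Atf3*. Replicate 2 was the lowest for 6 of the 9 genes, where it was the lowest for 34.1% of all genes. The SD was larger at E8.5 for 3 genes and at E7.5 for 6, with a median of 0.19 at E8.5 and 0.27 at E7.5, against 0.30 at E8.5 and 0.29 at E7.5 over all genes.

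Of 6 other AP-1 subunit genes, none passed after adjustment, 2 were higher and 4 lower at E8.5, and their median was -0.36. The differences of *Atf2* (-1.41) and *Atf7* (-1.01), which encode CRE-binding partners of JUN, were over 2-fold by the median of their probe sets, as were 4.79% of all genes in that direction. With the brightest probe set they were -0.20 and -0.67, and *Atf2* was -0.91 by the mean of its probe sets and -0.87 when E7.5 replicate 3 was left out. *Batf3*, a JUN partner of dendritic cells, read 8.70, 8.11 and 7.80 at E8.5, against 7.22, 7.88 and 7.08 at E7.5. It differed by 0.81 (SE 0.33, adjusted p = 0.63 from limma), with an overlap between E8.5 replicate 3 and E7.5 replicate 2. *Atf7* read 5.22, 5.52 and 5.14 at E8.5, against 5.64, 7.36 and 5.91 at E7.5. Its stages did not overlap, as for 7.12% of all genes in that direction. *Atf7* differed by -1.01 (SE 0.47, adjusted p = 0.68 from limma), or by -0.48 without E7.5 replicate 2.

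Of 31 other immediate early genes, 26 were measured, none passed after adjustment and 25 lay within 2-fold, where 7.5% of all genes were over 2-fold. There were 11 higher and 15 lower at E8.5, with a median of -0.16. The 1 gene over 2-fold was *Ier2*, an immediate early regulator, at 8.00, 10.83 and 9.65 at E8.5, against 8.23, 8.68 and 7.57 at E7.5. Its difference was 1.33 (SE 0.72, adjusted p = 0.73 from limma), with E8.5 replicate 1 below both higher E7.5 arrays, and it was 0.66 without E8.5 replicate 2 and 0.087 with its brightest probe set. *Arc*, an activity-induced gene of neurons, was the 1 gene of the list with an unadjusted p under 0.05, where 7.8% of all genes were. It read 7.53, 7.51 and 7.24 at E8.5, against 6.80, 7.03 and 7.06 at E7.5. Its stages did not overlap, and the difference was 0.46 (SE 0.18, adjusted p = 0.60 from limma), or 0.038 with its brightest probe set. *Nr4a1*, a nuclear receptor of the immediate early class, read 6.83, 7.74 and 6.73 at E8.5, against 7.01, 8.20 and 8.80 at E7.5, and differed by -0.90 (SE 0.52, adjusted p = 0.73 from limma). The difference of *Nr4a1* was -0.51 when E7.5 replicate 3 was left out and -1.40 when the first was. *Rhob*, an immediate early GTPase, was lower at E8.5 by its median, at -0.27, but was 0.24 higher by its brightest probe set. Besides *Arc*, higher at E8.5 (7.1% of all genes), the stages did not overlap for 2 genes lower at E8.5 (7.12%). These were *Rhob* and *Csrnp1* (-0.40).

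Of 21 upstream kinases and promoter factors, 18 were measured, none passed after adjustment, and 8 were higher and 10 lower at E8.5 with a median of -0.04. *Elk3*, an ETS partner of the serum response factor, read 10.46, 7.40 and 10.38 at E8.5, against 6.41, 9.47 and 6.72 at E7.5, a difference of 1.88 (SE 1.14, adjusted p = 0.74 from limma). A single array of each stage lay on the side of the other stage, so the stages overlapped, and *Elk3* lay between 1.32 and 2.89 on leaving out each array. Of the 18, 2 were over 2-fold higher at E8.5, *Elk3* and *Mapk3*, against 2.72% of all genes, and 1 lower, *Creb1*, against 4.79%. *Mapk3* differed by 1.30 (SE 0.88, adjusted p = 0.76 from limma) and *Creb1* by -1.16 (SE 0.86, adjusted p = 0.78 from limma). The stages overlapped for both. *Map2k2* and *Braf*, kinases of the ERK cascade, differed by -0.73 and -0.67 with the median of their probe sets and by 0.0040 and 0.057 with their brightest probe set.

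Of 14 heat shock genes, listed because dissociation and sorting can stress cells, 10 were measured and none passed after adjustment. *Hspa1a*, *Hspa1b*, *Hsp90aa1* and *Dnaja1* were not measured, so the list lacks them as a readout of stress. The mean log2 signal of the list was 9.07, 8.94 and 9.08 at E8.5, against 9.20, 9.71 and 9.62 at E7.5, so that every E8.5 array was below every E7.5 array. There were 3 genes higher and 7 lower at E8.5, with a median of -0.14. Over 2-fold, 3 of the 10 were lower at E8.5, against 4.79% of all genes, and none higher. Those 3 were *Hsf1*, *Hsf2* (-1.34) and *Hsph1* (-1.29), and the stages overlapped for each. The other 7 lay within 2-fold. Of the 10 genes the stages did not overlap for *Hspb1* alone, lower at E8.5, against 7.12% of all genes. How far the 3 genes over 2-fold set the list mean was not tested. *Hspb1*, which encodes a small heat shock protein, differed by -0.51 (SE 0.18, adjusted p = 0.56 from limma), and *Hsf1*, the heat shock transcription factor, by -1.46 (SE 0.61, adjusted p = 0.64 from limma), or by -0.03 with its brightest probe set. E7.5 replicate 2, the lowest E7.5 array for *Egr1*, had the highest heat shock mean, at 9.71. E7.5 replicate 3, the highest for *Egr1*, was close to it at 9.62. Whether the heat shock and *Egr1* values are linked was not tested.

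**Figure D4:**
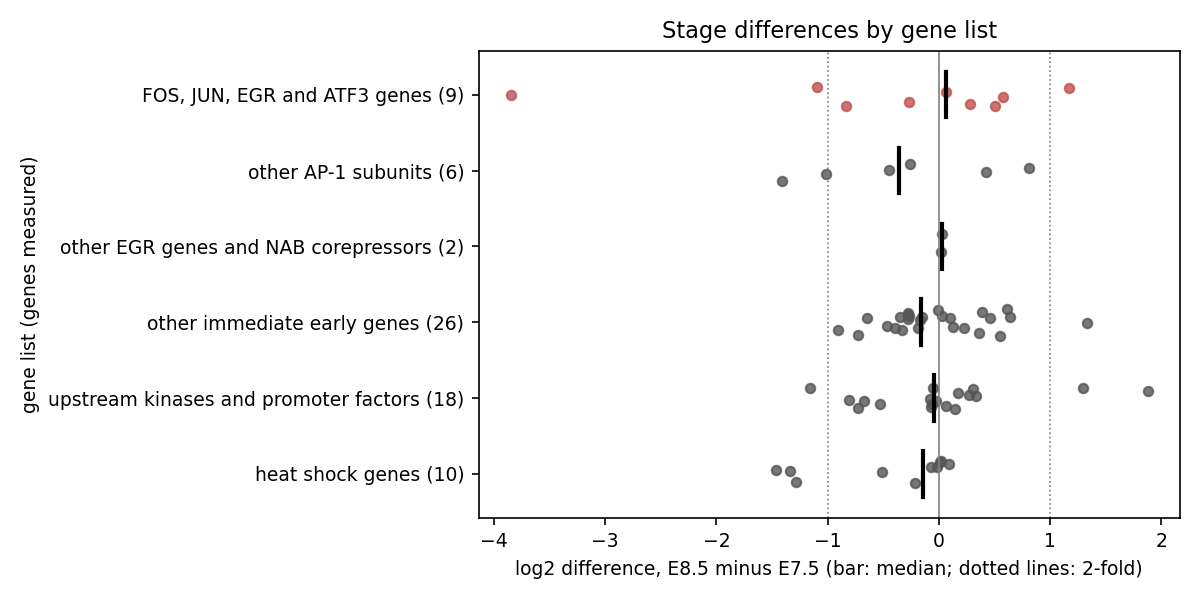
Log2 difference, E8.5 minus E7.5 (horizontal axis), of each gene of the FOS, JUN, EGR and ATF3 list and of 5 related lists, with the median of each list (bar) and the limits of a 2-fold difference (dotted). *Egr1*, at -3.85, lies outside the range of every other list, whose genes run from -1.46 to 1.88.

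Array medians were between 6.98 and 7.07, and arrays correlated at 0.876 to 0.886 within E8.5, at 0.884 to 0.896 within E7.5 and at 0.855 to 0.881 between stages. *Etv2*, whose reporter was sorted on, read 11.60, 10.93 and 11.48 at E8.5, against 11.66, 12.09 and 11.72 at E7.5. *Kdr* and *Itga2b*, whose products were stained for the sort, differed by -0.73 and -0.52, but by 0.078 and 0.69 with their brightest probe set. Of 12 genes listed as markers of the sorted cells, 8 were higher and 4 lower at E8.5, with a median of 0.33. None passed after adjustment, but 4 were over 2-fold higher at E8.5, against 2.72% of all genes, and none over 2-fold lower. Those 4 were *Cldn5* (1.92), *Emcn* (2.58), *Tie1* (1.27) and *Cdh5* (1.26), and the stages overlapped for *Cdh5* alone of them. Of the 12, the stages thus did not overlap for 3 genes higher at E8.5, against 7.1% of all genes. They also did not overlap for 2 lower at E8.5, *Sox18* (-0.72) and *Etv2* (-0.49), against 7.12% of all genes. The mean of the 12 was 8.62 to 8.84 at E8.5, against 7.78 to 8.70 at E7.5. Of the E7.5 arrays, replicate 2 was highest and replicate 3 lowest. For *Egr1* these E7.5 arrays stood in the opposite order. The mean of 5 primitive erythroid markers measured of 7 listed was 5.81 to 6.03 at E8.5, against 7.20 to 7.29 at E7.5. *Hbb-bh1*, an embryonic globin gene, differed by -4.87 (adjusted p = 0.046 from limma, 0.0985 to 0.16 on leaving out each array), and *Gata1*, an erythroid transcription factor, by -1.86 (adjusted p = 0.36 from limma). The other 3 of these markers differed by -0.11 to 0.11 with overlapping stages, and the median of the list was -0.11. Among the markers of other cells, 8 visceral endoderm genes averaged 6.85 to 7.24 at E8.5 and 6.98 to 7.76 at E7.5, and 3 of 4 macrophage genes 6.45 to 6.70 at E8.5 and 6.61 to 6.82 at E7.5. A list of 6 cardiac genes averaged 7.25 to 9.26 at E8.5 and 7.81 to 8.30 at E7.5, and 3 of 4 neural ectoderm genes 6.82 to 7.06 at E8.5 and 6.46 to 6.85 at E7.5. Of the 6 cardiac genes, 5 were higher at E8.5 and 1, *Myl7*, lower, at -2.55 (SE 0.89, adjusted p = 0.56 from limma). *Myl7* read 7.97, 10.63 and 7.09 at E8.5, against 11.34, 10.70 and 11.29 at E7.5, without overlap. The stages also did not overlap for *Tbx5* (0.23), and *Tnnt2* and *Actc1* were highest on E8.5 replicate 2. The part of these cells in the differences of the FOS, JUN and EGR genes was not tested.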

How the data were processed

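RNA of 50 sorted cells per replicate was amplified with the SuperAmp kit, labelled with biotin and hybridized to Affymetrix GeneChip Mouse Exon 1.0 ST arrays. The table that the authors deposited gave RMA signals on the log2 scale for 90788 exon probe sets, and the submitters' notes name Affymetrix Power Tools, without versions in the sources used here. RMA narrows differences of dim probe sets and sets the distributions of the arrays equal, and amplification from few cells adds spread between replicates. Signal over background is unknown, since detection p-values were not among the files used here, and precision is limited by having 3 arrays per stage. Symbols came from the annotation of the array: 77669 had 1 symbol, 654 with several symbols were not used, and 12465 listed none. Gene levels were medians over probe sets, and 3408 of 16523 genes rested on 1.

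The comparison of stages used limma 3.58.1 under R 4.3.3 (functions lmFit and eBayes, no filter, Benjamini-Hochberg adjustment over all genes or all probe sets). Exact permutation tests were two-sided. On data simulated with the spread of these arrays, the fit called 10 of 50 genes with a change of 1 log2 unit, 40 of 50 with a change of 2 and 45 of 50 with a change of 4, with 10 false calls among 16523 genes. The fit over 77669 probe sets called 0, 8 and 28 of 50 probe sets at the same changes, with 6 false calls. The simulation used normal values with the same spread in both stages. *Egr1* had an SD of 0.11 at E8.5 and 2.27 at E7.5, so these shares do not carry over to it. Promoters were searched in Python 3.11.15. The genes and lists were chosen with earlier results of these data known. Named genes were all members, up to 4 per direction with the smallest p from each list, and the genes of the sort, and those printed were chosen after their values were seen. As alternatives, arrays were normalized again, dim genes were removed, and genes were summarized by their mean or brightest probe set. In others the variance model was changed, replicate numbers entered as a block, Student's t-test was run and each array was left out. The RT-qPCR and single-cell data of the study were not used here.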

Additional observations from a re-analysis of the deposited data

How the results depend on the processing

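No FOS, JUN, EGR or *Atf3* gene passed the threshold of adjusted p from limma under any alternative, nor did a gene of the related lists. The count of their probe sets that passed was 0 to 1 on leaving out each array, and 0 under the other alternatives. Over 15 alternatives the difference of *Egr1* lay between -5.11 and -2.90. Its adjusted p was 0.0871 to 0.67, the lowest from limma and the highest from Student's t-test. The direction held in 126 of 131 alternatives for single members, and in the other 5 it reversed, all for *Jun*: -0.36 with the mean over probe sets, -0.15 with the brightest, -0.0035 without E7.5 replicate 2, and -0.11 and -0.15 on leaving out the first or the second E8.5 array. On leaving out each array, *Jun* lay between -0.15 and 0.46, *Nab1* between -0.15 and 0.16 and *Nab2* between -0.076 and 0.14. Among other genes, the brightest probe set reversed *Rhob* (0.24), *Nab2* (-0.31), *Braf* (0.057), *Map2k2* (0.0040), *Kdr* (0.078) and *Itga2b* (0.69), and the mean over probe sets reversed *Rhob* (0.040). The cause of these reversals was not tested. The median over the 9 genes lay between -0.27 and 0.24, so its sign was not settled, and 2 to 4 genes were over 2-fold. The count of all genes called, 18, was 0 with the replicate number as a block, with Student's t-test and among genes above the median signal. It was 0 to 12 on leaving out an array. Same-numbered arrays of both stages did not deviate together (correlations of 0.0074, -0.0083 and -0.00082). These values gave no sign that the numbers pair the samples, but they cannot exclude a shared day of sorting or processing. With the replicate block *Egr1* had an adjusted p of 0.49 from limma. *Fosb*, *Fosl2*, *Junb* and *Egr2* were removed by the filter on dim genes and have no value under it.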
